A study of Mus musculus with 8 samples.

Results

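Notch signalling and the transcription factors of secretory fate were examined in colonic epithelial cells of mice colonized with Bacteroides thetaiotaomicron. The 10 genes were the receptors Notch1 and Notch2, the ligands Dll1, Dll4, and Jag1, the Notch target Hes1, and the lineage factors Atoh1, Gfi1, Hes6, and Neurog3. They were chosen by name, and every probe set annotated to exactly 1 gene symbol, that symbol being one of the 10, was taken. This gave 17 probe sets for 10 of the 18193 genes that 34945 probe sets of the array name in this way. None of the 17 probe sets differed between the groups past the spread between mice. On single probe sets, mice differed by up to 6.91-fold for Gfi1, 6.03-fold for Jag1, and 4.60-fold for Notch2. The highest and lowest mice differed by 1.71-fold and 1.81-fold on the other probe sets of Jag1, and by 1.06-fold on that of Notch2.

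The study compared male SPF C57BL/6 mice that were treated with the antibiotics metronidazole and ciprofloxacin, colonized with B. theta at 8 wk of age, and sampled at 12 wk of age, 4 wk after colonization. One group of 4 mice received wild-type B. theta (BTWT), and the other group of 4 received the mutant without the Mucus-Associated Functional Factor locus (BTΔMAFF, labelled BTDMAFF). The comparison addresses whether this bacterial locus alters gene expression of the host epithelium. Both groups carry the antibiotic treatment, so neither stands for an untreated mouse, and the antibiotics need not remove all resident bacteria. Living EpCAM+ CD45- cells were sorted from the EDTA-released colonic epithelium, and amplified RNA of each mouse was hybridized to 1 Affymetrix mouse genome GeneChip.

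In the crypt, a ligand such as Dll1, Dll4, or Jag1 on one cell binds a Notch receptor on its neighbor, and the receptor is cut to free its intracellular domain. This domain joins the DNA-binding protein RBPJ and turns on Hes1, a repressor of Atoh1. Progenitors with active Notch become absorptive cells, and those that escape it express Atoh1 and become goblet, enteroendocrine, or other secretory cells. Gfi1 acts below Atoh1 and favors goblet over endocrine fate, Neurog3 starts the endocrine program, and Hes6 is a relative of Hes1 that counters its action.

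Each value is a deposited log2 value from which the median of the 8 arrays had been subtracted for each probe set, referred to as the centred log2 value. It tells how a mouse differs from the middle of the 8 mice, and neither a level of expression nor a detection call can be had from it. Differences are BTWT minus BTΔMAFF on this scale, with SD over n = 4 mice per group, and were fitted with limma over 45037 probe sets with Benjamini-Hochberg adjustment. In a sorted bulk sample, fewer cells of a type and less RNA per cell cannot be told apart. On the first principal component, with 29.4% of the variance, BTWT replicate 2 and BTΔMAFF replicate 4 stood apart from the other 6 arrays. Ptprc, which encodes CD45, ranged over the 8 mice from -0.04 to 0.07, and Epcam from -0.42 to 0.64.

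Of the 17 probe sets, 0 passed an adjusted p of 0.05, as did 0% of all probe sets. At an unadjusted p under 0.05, 0 of 17 were higher in BTWT and 0 lower, against 2.24% and 2.86% of all probe sets, and the smallest unadjusted p was 0.129. In 0 of 17 did the 4 BTWT mice lie apart from the 4 BTΔMAFF mice, against 2.83% of all probe sets. The difference was above 0 for 11 probe sets and below 0 for 6, from -0.29 for Gfi1 to 0.25 for Jag1. Its median was 0.012, and the median over all probe sets was 0.018. Between-group differences held from 0.0% of the variance, for Notch2 1455556_at, to 29.9%, for Jag1 1421105_at, with 17 probe sets on both sides of 11.0%, the median over all probe sets. The intervals given below bound the differences, and a p above the threshold does not show that the groups were alike.

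**Figure D1:**
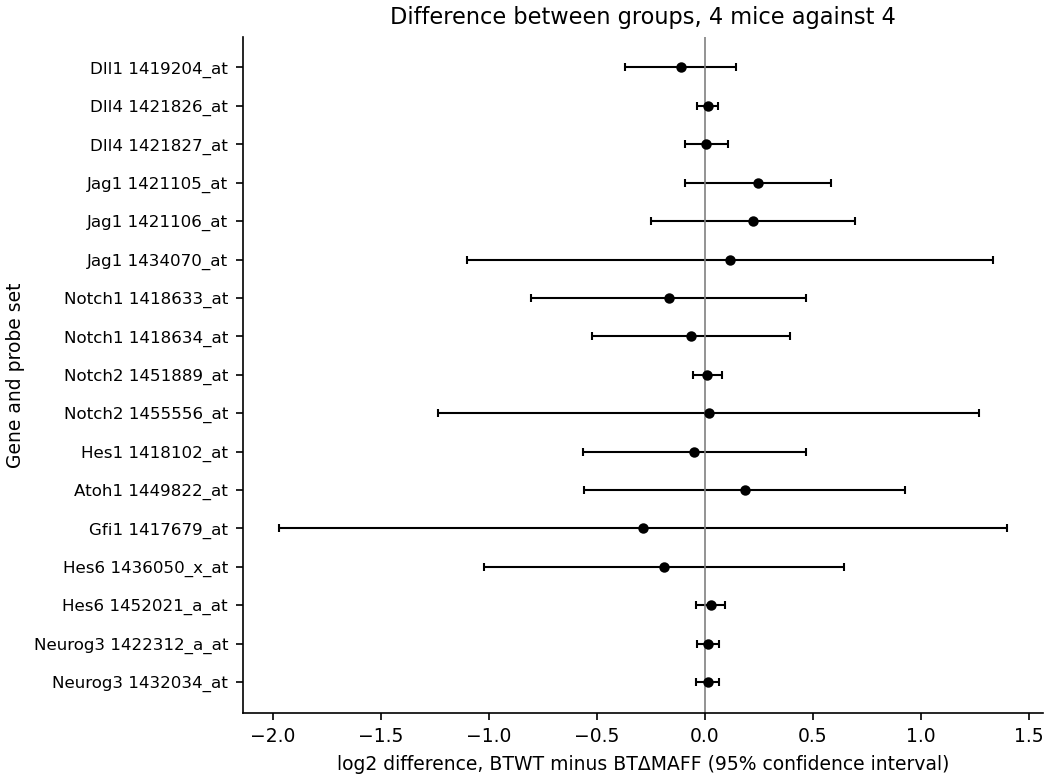
Log2 difference between BTWT and BTΔMAFF (x axis) for each of the 17 probe sets (y axis); points are limma estimates and bars are 95% confidence intervals from 4 mice per group. All 17 intervals include 0, and the widest, of Gfi1, runs from -1.97 to 1.40.

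The 17 probe sets fell into those that varied between mice and those that did not. In 6, both of Dll4, both of Neurog3, Notch2 1451889_at, and Hes6 1452021_a_at, every mouse stayed within 0.1 of the median of all probe sets on its array, as did 38.2% of all probe sets. The other 11 had at least 1 mouse 0.30 to 1.89 away from that median, and their highest and lowest mice differed by 1.37-fold to 6.91-fold. For 4 of them, Gfi1, Notch2 1455556_at, Jag1 1434070_at, and Hes6 1436050_x_at, the SD over the 8 mice was above the 90th percentile of all probe sets. Among the 11, BTΔMAFF replicate 1 was the highest mouse in 6 and BTWT replicate 1 in 4, while BTWT replicate 2 was the lowest in 4.

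**Figure D2:**
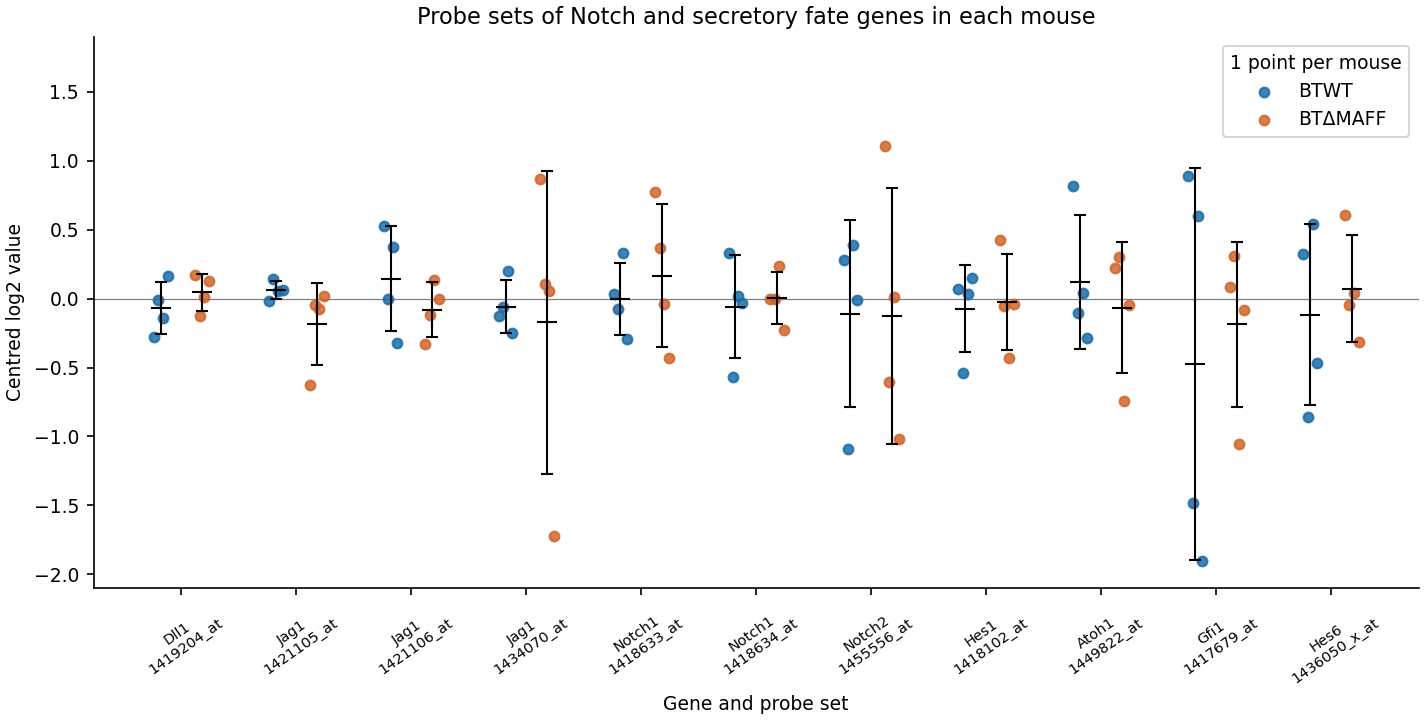
Centred log2 value (y axis) in each mouse of the 11 probe sets that varied (x axis), with BTWT in blue and BTΔMAFF in orange; long ticks are means and bars are SD (n = 4 mice). The groups overlap in every probe set, and the spread within BTWT is widest for Gfi1, from -1.90 to 0.89.

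Among the ligands, Dll1, which is expressed by secretory progenitors, had the narrowest spread of the 11. Its centred log2 values on 1419204_at were -0.28, -0.009, -0.14, and 0.16 in BTWT replicates 1 to 4 and 0.17, -0.13, 0.009, and 0.13 in BTΔMAFF replicates 1 to 4. BTWT replicate 1 was the lowest mouse, and the other 7 mice were mixed. The mean was -0.07 ± 0.19 in BTWT and 0.05 ± 0.13 in BTΔMAFF (SD, n = 4), and the difference was -0.11 (95% confidence interval, -0.37 to 0.14; limma, adjusted p = 0.828). As a ratio, BTWT over BTΔMAFF was 0.925, with an interval from 0.775 to 1.10.

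Dll4, the other Delta-like ligand of the crypt, has 2 probe sets, and neither moved away from the array-wide offset. The 1421827_at values were 0.004, 0.08, -0.007, and 0.019 in BTWT and -0.02, -0.004, -0.03, and 0.13 in BTΔMAFF replicates 1 to 4. Its highest mice, BTΔMAFF replicate 4 and BTWT replicate 2, were the 2 whose arrays stood apart. The differences were 0.006 (95% confidence interval, -0.09 to 0.11) on 1421827_at and 0.012 (-0.04 to 0.06) on 1421826_at.

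Jag1, a Serrate-type ligand, was read by 3 probe sets that did not follow each other across the 8 mice. On 1421105_at, the BTWT replicates 1 to 4 were at -0.017, 0.14, 0.06, and 0.06, and the BTΔMAFF replicates 1 to 4 were at -0.63, -0.05, -0.07, and 0.017. BTΔMAFF replicate 1 lay far below the other 7 mice, and BTΔMAFF replicate 4 lay inside the range of BTWT. The means were 0.06 ± 0.07 in BTWT and -0.18 ± 0.30 in BTΔMAFF (SD, n = 4). This was the probe set with the smallest p of the 17, with a difference of 0.25 (95% confidence interval, -0.09 to 0.58; limma, adjusted p = 0.828). Without BTWT replicate 1 or without BTΔMAFF replicate 4, every remaining BTWT mouse was above every remaining BTΔMAFF mouse on this probe set, and so were the groups of 4.01% and 42.92% of all probe sets, in either direction.

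On Jag1 1421106_at, the values were 0.53, -0.001, 0.37, and -0.32 in BTWT and -0.33, -0.12, 0.14, and 0.001 in BTΔMAFF replicates 1 to 4. BTWT held the 2 highest mice, and the lowest mice of both groups were nearly level. The difference was 0.22 (95% confidence interval, -0.25 to 0.69). On 1434070_at, the values were -0.12, -0.06, 0.20, and -0.25 in BTWT and 0.87, 0.10, 0.06, and -1.72 in BTΔMAFF. Here BTΔMAFF held both the highest and the lowest mouse, replicates 1 and 4, and its SD of 1.10 stood against 0.19 in BTWT (n = 4 each). The correlation across the 8 mice was 0.42 between 1421105_at and 1421106_at, -0.53 between 1421105_at and 1434070_at, and -0.11 between 1421106_at and 1434070_at. BTΔMAFF replicate 1 was thus the lowest mouse on the first and the highest on the last of these probe sets of 1 gene.

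Of the receptors, Notch1 was read by 2 probe sets. On 1418633_at, the values were 0.04, -0.08, 0.33, and -0.29 in BTWT and 0.77, 0.37, -0.04, and -0.43 in BTΔMAFF replicates 1 to 4. The BTΔMAFF mice spanned the BTWT mice on both sides, and the difference was -0.17 (95% confidence interval, -0.80 to 0.47; limma, adjusted p = 0.828). On 1418634_at, the values were 0.33, -0.57, 0.02, and -0.03 in BTWT and 0, 0, 0.24, and -0.23 in BTΔMAFF, with a difference of -0.06 (-0.52 to 0.40). On this second probe set BTWT spanned BTΔMAFF, and the correlation of the 2 probe sets over the 8 mice was 0.24.

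Notch2, the receptor that acts beside Notch1 in crypt progenitors, was among the most variable genes of the array on 1455556_at and nearly flat on 1451889_at. The former had values of 0.28, -1.09, 0.39, and -0.009 in BTWT and 1.11, -0.61, 0.009, and -1.02 in BTΔMAFF replicates 1 to 4. Each group held mice far above and far below 0, and the SD over the 8 mice was at the 97.7th percentile of all probe sets. The difference was 0.018, with a wide 95% confidence interval from -1.24 to 1.27, or a ratio from 0.425 to 2.41. On 1451889_at, the difference was 0.011 (-0.06 to 0.08), and the correlation of the 2 probe sets over the 8 mice was -0.27.

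Hes1, the repressor through which Notch holds back Atoh1, had 1 probe set, 1418102_at. Its values were 0.07, -0.54, 0.04, and 0.15 in BTWT and 0.43, -0.05, -0.43, and -0.04 in BTΔMAFF replicates 1 to 4. Of the BTWT mice 3 lay close together and replicate 2 lay far below them, while BTΔMAFF mice lay on both sides of those 3. The means of -0.07 ± 0.32 in BTWT and -0.02 ± 0.35 in BTΔMAFF (SD, n = 4) differed by -0.05 (95% confidence interval, -0.57 to 0.47; limma, adjusted p = 0.913). As a ratio, BTWT over BTΔMAFF was 0.966, with an interval from 0.675 to 1.38.

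Atoh1, the factor that commits a progenitor to the secretory lineage, had 1 probe set, 1449822_at. The values were 0.82, -0.10, 0.04, and -0.29 in BTWT and 0.22, 0.30, -0.74, and -0.04 in BTΔMAFF replicates 1 to 4. BTWT replicate 1 was the highest mouse and BTΔMAFF replicate 3 the lowest, 2.96-fold apart, and the other 6 mice were mixed. The mean was 0.12 ± 0.49 in BTWT and -0.07 ± 0.48 in BTΔMAFF (SD, n = 4), with a difference of 0.18 (95% confidence interval, -0.56 to 0.93; limma, adjusted p = 0.828).

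Gfi1, a zinc finger repressor below Atoh1, varied most of the 10 genes, with an SD over the 8 mice at the 99.5th percentile of all probe sets. The values of 1417679_at were 0.89, -1.48, 0.60, and -1.90 in BTWT and 0.08, 0.31, -1.05, and -0.08 in BTΔMAFF replicates 1 to 4. BTWT thus held the 2 highest and the 2 lowest mice, and over both groups 3 mice lay at or below -1.05 and 5 at or above -0.08. The mean was -0.47 ± 1.42 in BTWT and -0.19 ± 0.60 in BTΔMAFF (SD, n = 4). The difference was -0.29 (95% confidence interval, -1.97 to 1.40; limma, adjusted p = 0.850), so a ratio anywhere from 0.255 to 2.64 lay within the interval.

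Since Gfi1 had the highest correlation with Atoh1 of the other 9 genes, as described below, the 250 bases before a start site of each are shown, from RefSeq (GRCm38.p6), 5′ to 3′ on the strand of the gene. The Atoh1 window is chr6:64728875-64729124 on the plus strand, and that of the Gfi1 start site farthest upstream is chr5:107725806-107726055 on the minus strand. Capitals mark the letters of a motif searched on both strands.
Atoh1 promoter: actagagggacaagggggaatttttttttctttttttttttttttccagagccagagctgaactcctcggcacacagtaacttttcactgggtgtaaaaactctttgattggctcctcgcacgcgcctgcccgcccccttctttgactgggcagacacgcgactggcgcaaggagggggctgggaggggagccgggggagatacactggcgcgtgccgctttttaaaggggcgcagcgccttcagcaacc
Gfi1 promoter: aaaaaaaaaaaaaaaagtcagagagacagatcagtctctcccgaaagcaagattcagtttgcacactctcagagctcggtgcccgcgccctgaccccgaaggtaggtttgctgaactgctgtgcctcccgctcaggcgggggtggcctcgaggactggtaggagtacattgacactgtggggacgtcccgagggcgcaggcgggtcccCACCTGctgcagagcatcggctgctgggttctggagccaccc
The motifs were TGGGAA (core of RBPJ sites), CACNAG (the N-box bound by Hes factors), and the E-boxes CAGCTG and CAGGTG, the kind of site that basic helix-loop-helix factors such as Atoh1 bind. They are found in 21.6%, 36.7%, 13.0%, and 17.2% of the 32851 promoter windows of this length in RefSeq, and no match here lay in more than 1 motif. The Gfi1 window holds 1 match, CACCTG, which is CAGGTG on the other strand, and neither the Atoh1 window nor the window of a further Gfi1 start site, chr5:107724344-107724593, holds one. Of the 10 genes, 9 were matched to the promoter table and Hes1 was not. Motif letters are a description of the window, and no binding was measured.

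Hes6 was read by 2 probe sets that disagreed. On 1436050_x_at, whose suffix marks probes that may also match other transcripts, the values were 0.32, -0.86, 0.54, and -0.47 in BTWT and 0.61, -0.04, 0.04, and -0.32 in BTΔMAFF replicates 1 to 4. BTWT held the 2 lowest mice and BTΔMAFF the highest, and the difference was -0.19 (95% confidence interval, -1.02 to 0.65; limma, adjusted p = 0.828). On 1452021_a_at, no mouse was farther than 0.06 from 0, with a difference of 0.026 (-0.04 to 0.09), and the correlation of the 2 probe sets over the 8 mice was -0.24.

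Neurog3, the factor that begins endocrine differentiation, was flat on both probe sets. Over the 8 mice, 1422312_a_at ran from -0.02 to 0.03, and the differences were 0.014 (95% confidence interval, -0.04 to 0.07) on it and 0.012 (-0.04 to 0.07) on 1432034_at. The correlation between them was 0.99. The 2 highest mice were again BTWT replicate 2 and BTΔMAFF replicate 4, and the array medians over all probe sets, which ran from -0.03 to 0.04, were highest in the same 2 mice. After each array was centred on its median, the difference of both Neurog3 probe sets, both Dll4 probe sets, and both Notch2 probe sets turned below 0, with sizes of at most 0.012. Whether these transcripts were above background in the sorted cells cannot be read from centred values.

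**Figure D3:**
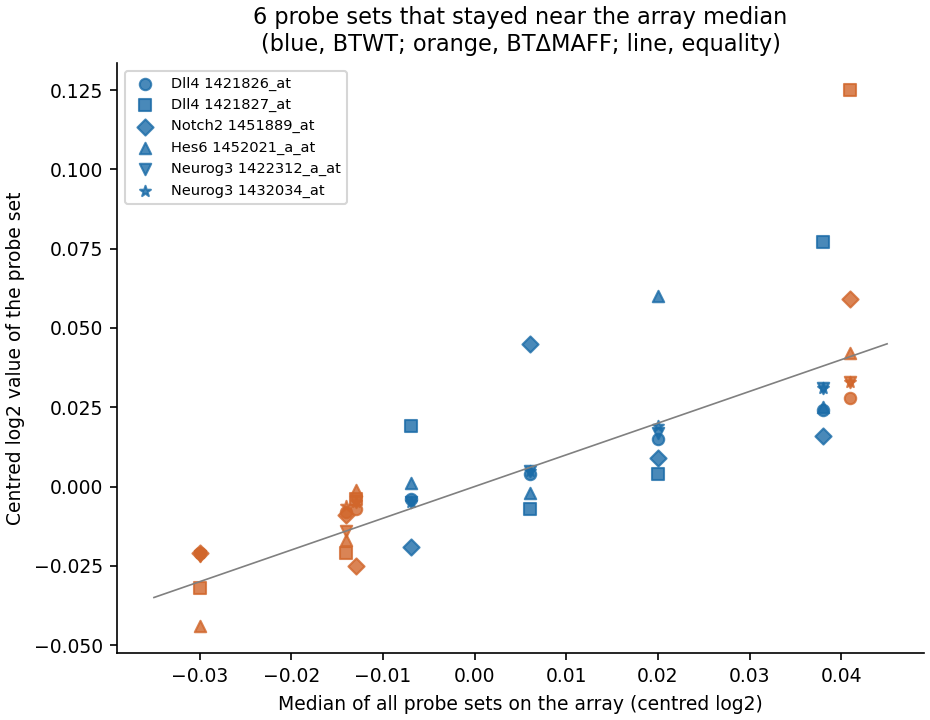
Centred log2 value of the 6 flat probe sets (y axis) against the median of all probe sets on the same array (x axis, from -0.03 to 0.04); symbols are probe sets, colors are groups, and the line marks equality. Points lie at most 0.08 from the line.

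Across mice, Atoh1 was set against each of the other 9 genes, each by its probe set with the largest SD. Gfi1 had the highest Pearson's r, 0.740 (two-sided exact permutation test, n = 8, p = 0.0278, adjusted over 9 pairs, p = 0.251), and a Spearman's rho of 0.857 (p = 0.0107, adjusted p = 0.0964). The mice with high Atoh1, BTWT replicate 1 and BTΔMAFF replicates 1 and 2, also had Gfi1 above its median, and BTWT replicates 2 and 4 and BTΔMAFF replicate 3 were low in both. Without the 2 mice farthest from the median of Atoh1, BTWT replicate 1 and BTΔMAFF replicate 3, r was 0.803, and after group means were removed it was 0.800. Within groups r was 0.81 in BTWT and 0.99 in BTΔMAFF, each over 4 mice only.

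No inverse relation of Hes1 and Atoh1 was detected in these 8 mice. Their r was 0.484 (exact permutation test, n = 8, p = 0.220, adjusted p = 0.661) with a rho of 0.357 (p = 0.389, adjusted p = 0.642), and r was 0.277 without the same 2 mice. Dll1 had the lowest value, with an r of -0.56 (exact permutation test, n = 8, p = 0.151, adjusted p = 0.661) and a rho of -0.48 (p = 0.243, adjusted p = 0.547). The other 6 pairs had r from -0.013 for Dll4 to 0.378 for Hes6, and 0 of 9 pairs passed adjustment by either measure.

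Gfi1 was then set against 20 genes of the secretory program, a comparison chosen after the values had been seen. The highest r was with Reg4, a lectin of deep crypt secretory and endocrine cells, and Spink4, a peptide of goblet cells. For the others, r ran from -0.43 for Klf4 to 0.77 for Creb3l4, and none of them passed adjustment by r or by rank. The goblet cell products were mixed, with Muc2 at 0.63 and Agr2, Zg16, Clca1, Tff3, and Fcgbp between 0.12 and 0.32. Reg4 had values of 0.82, -0.74, 0.51, and -0.50 in BTWT and 0.38, 0.013, -0.013, and -0.28 in BTΔMAFF replicates 1 to 4. BTWT replicates 1 and 3 were high in Gfi1, Reg4, and Spink4, and BTWT replicates 2 and 4 were low in all 3. The r was 0.853 for Reg4 (two-sided exact permutation test, n = 8, p = 0.00848, adjusted over 20 pairs, p = 0.170) and 0.808 for Spink4 (p = 0.0216, adjusted p = 0.197). The rank correlation (Spearman) was 0.929 for both (exact permutation test, n = 8, p = 0.00223, adjusted p = 0.0223). Past the threshold here, its adjusted p from the same exact test was 0.0871 for Spink4 and 0.0446 for Reg4 with each array centred, and 0.111 for both without the 2 arrays that stood apart. Without the 2 mice farthest from the median of Gfi1, BTWT replicates 2 and 4, r was 0.684 and 0.626. Within groups it was 0.97 and 0.95 in BTWT and 0.18 and 0.23 in BTΔMAFF, so the relation was not seen in both groups, each of 4 mice. The difference between the groups was -0.001 for Reg4 and -0.005 for Spink4.

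**Figure D4:**
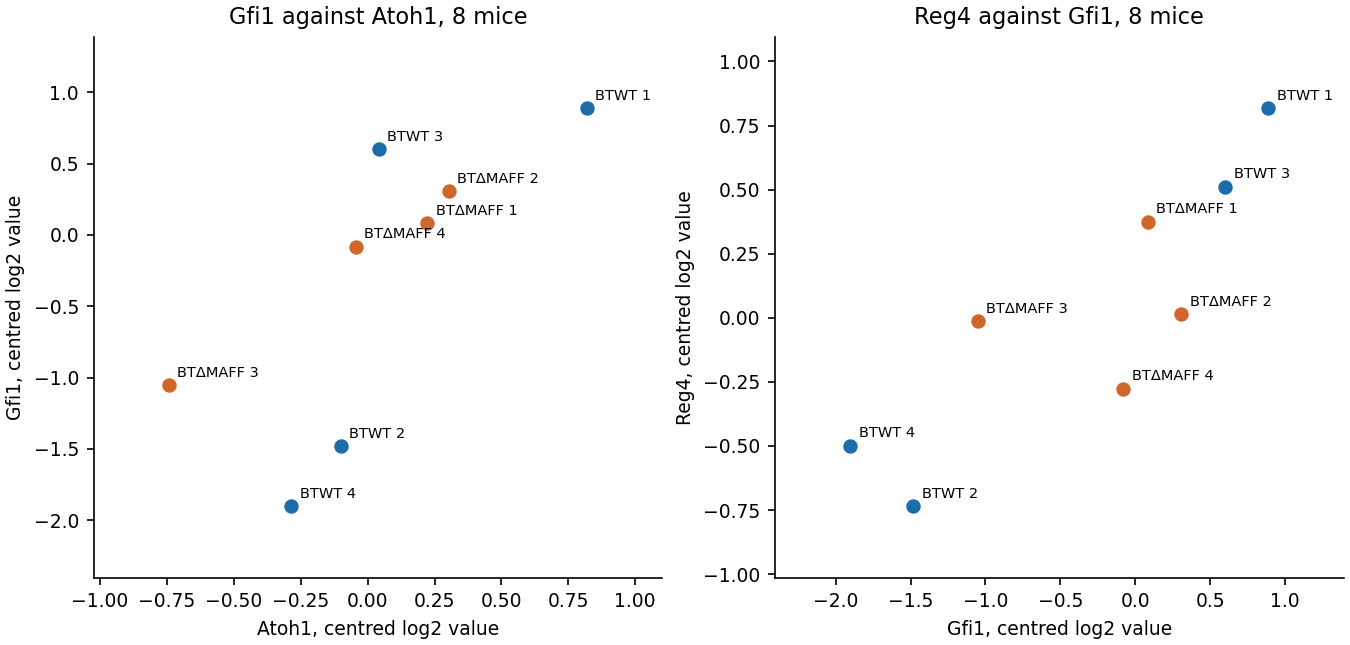
Centred log2 value of Gfi1 against Atoh1 (left) and of Reg4 against Gfi1 (right) in each of the 8 mice, labelled by group (BTWT in blue, BTΔMAFF in orange) and replicate. Pearson's r is 0.740 on the left and 0.853 on the right, and BTWT replicate 1 is the highest mouse for all 3 genes.

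The genes most like Atoh1, Hes1, and Gfi1 over the 8 mice were sought among 9096 genes whose SD was at or above the median. For Atoh1 they were Slc25a51, Itgb3bp, Polh, Atl1, and Pde3b, with r from 0.957 to 0.937. For Hes1 they were Fbxo21, Cabcoco1, Slc10a7, Gne, and Cdkn2aipnl, with r from 0.949 to 0.933. For Gfi1, which was added after its values had been seen, they were Slco4a1, Surf6, Nxpe2, Exoc4, and Metap1d, with r from 0.907 to 0.875. None of the 15 belongs to the 10 genes or to the lists below, and with 8 mice values of this size are the top of a large ranking and carry no test.

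Around the 10 genes, 11 lists of the Notch pathway and of the lineages below it held 121 genes, of which 113 were measured. At an unadjusted p under 0.05, 3 genes (2.65%) were higher in BTWT and 7 (6.19%) were lower, against 2.35% and 3.37% of all 18193 genes by 1 probe set each. None of the 113 passed adjustment, and their median difference of 0.013 stood beside 0.019 over all genes. The groups did not overlap in 6 of the 113 (5.31%), against 3.14% of all genes by 1 probe set each. The lists of other receptors (2 genes), other ligands (5), cleavage enzymes (7), other target repressors (8), endocrine program (13), and absorptive fate factors (10) had 0 genes at this threshold in either direction.

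**Figure D5:**
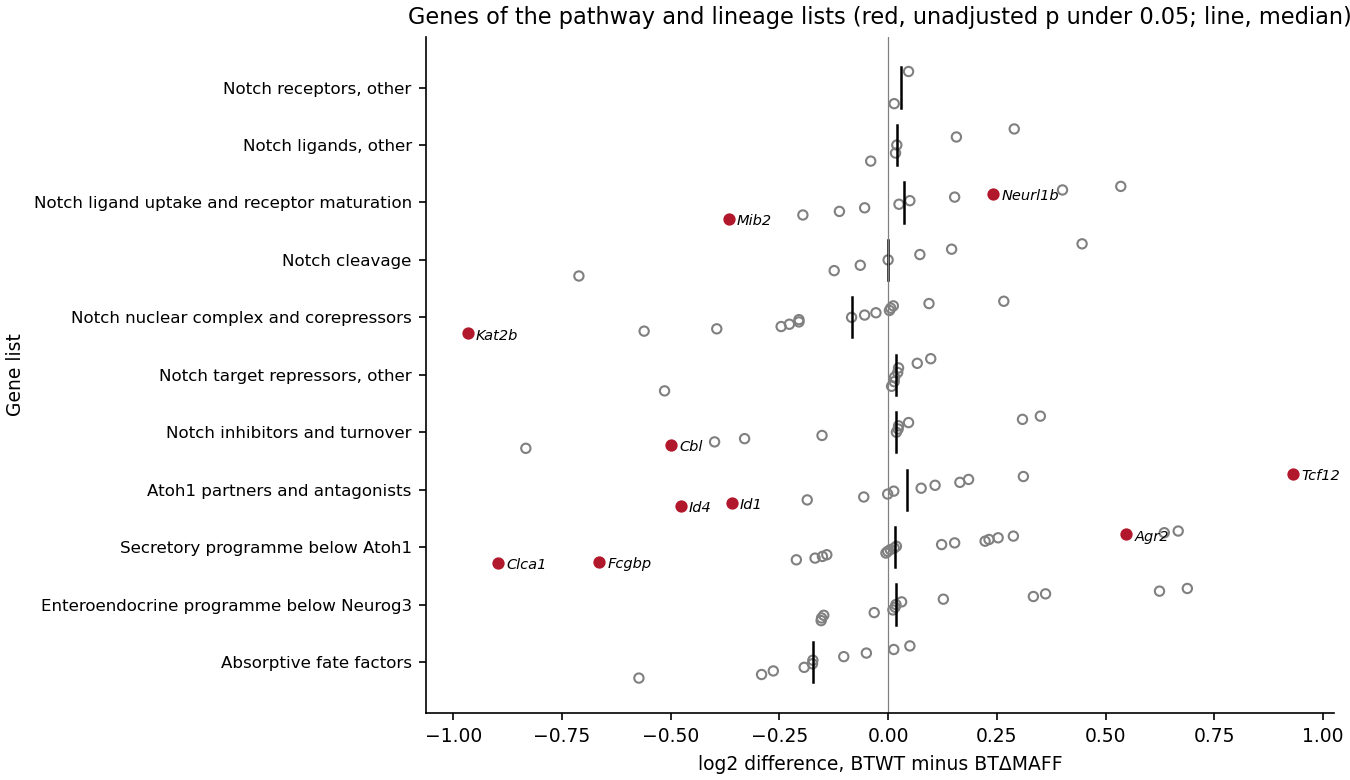
Log2 difference between BTWT and BTΔMAFF (x axis) of each measured gene in the 11 lists (y axis); red points with names have an unadjusted p under 0.05 and black lines are list medians. The 10 red points lie on both sides of 0, from -0.97 for Kat2b to 0.93 for Tcf12.

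In the list of ligand uptake and receptor maturation (10 genes, 1 higher and 1 lower, median 0.04), both genes at the threshold were ubiquitin ligases that act on Notch ligands. Neurl1b was 0.15 ± 0.10 in BTWT and -0.09 ± 0.10 in BTΔMAFF (SD, n = 4), and all 4 BTWT mice were above all BTΔMAFF mice, with a difference of 0.24 (SE, 0.07; limma, adjusted p = 0.664). Mib2 ran the other way without overlap, at -0.10 ± 0.10 and 0.27 ± 0.20, with a difference of -0.37 (SE, 0.11; limma, adjusted p = 0.679). Adam17, a sheddase and the cleavage gene of smallest p, differed by 0.45 (SE, 0.22; limma, adjusted p = 0.828). Of the other receptors and ligands, Notch4 and Dlk2 came first, at 0.05 (SE, 0.055; limma, adjusted p = 0.828) and 0.16 (SE, 0.11; limma, adjusted p = 0.828).

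The nuclear complex and its corepressors (15 genes, 0 higher and 1 lower, median -0.08) included Kat2b, a histone acetyltransferase recruited by the Notch domain. Its values were 0.006, -0.12, -0.75, and -0.71 in BTWT and -0.006, 0.64, 1.10, and 0.56 in BTΔMAFF replicates 1 to 4, so that replicates 1 of both groups met near 0. The difference was -0.97 (SE, 0.28; limma, adjusted p = 0.673), with the same sign on 3 of 3 probe sets. Among the inhibitors (11 genes, 0 higher and 1 lower, median 0.019), Cbl, a ubiquitin ligase of receptor turnover, was at -0.08 ± 0.07 in BTWT and 0.42 ± 0.30 in BTΔMAFF without overlap, with a difference of -0.50 (SE, 0.14; limma, adjusted p = 0.676). Nrarp, a feedback gene that Notch itself turns on, was the target of smallest p, at -0.51 (SE, 0.30; limma, adjusted p = 0.828).

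Of the partners and antagonists of Atoh1 (12 genes, 1 higher and 2 lower, median 0.04), Tcf12 encodes an E protein that pairs with Atoh1, and Id1 and Id4 encode inhibitors that bind E proteins. Tcf12 differed by 0.93 (SE, 0.30; limma, adjusted p = 0.780), but only 3 of its 5 probe sets had this sign. Id1 differed by -0.36 (SE, 0.14) and Id4 by -0.48 (SE, 0.20), both with an adjusted p of 0.828 from limma and with overlapping groups.

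Below Atoh1 (20 genes, 1 higher and 2 lower, median 0.016), the genes at the threshold were products of goblet cells. Fcgbp, a mucus glycoprotein, was -0.18, -0.49, -0.06, and -0.44 in BTWT and 0.47, 0.06, 0.56, and 0.41 in BTΔMAFF replicates 1 to 4. The groups did not overlap, and the difference was -0.67 (SE, 0.14; limma, adjusted p = 0.414). Clca1, a secreted mucus protease, was -0.77, -1.22, -0.08, and -0.23 in BTWT and 0.54, 0.08, 0.36, and 0.32 in BTΔMAFF, also without overlap, and differed by -0.90 (SE, 0.26; limma, adjusted p = 0.670). Agr2, a disulfide isomerase of mucin folding, lay on the other side at 0.55 (SE, 0.19; limma, adjusted p = 0.828). Muc2, the main mucin, differed by -0.15 (SE, 0.069; limma, adjusted p = 0.828) and Spdef, a goblet cell factor, by 0.25 (SE, 0.52; limma, adjusted p = 0.830). In the lists of endocrine and absorptive fate, Neurod2 at 0.13 (SE, 0.056; limma, adjusted p = 0.828) and Hnf4a at -0.57 (SE, 0.25; limma, adjusted p = 0.828) had the smallest p.

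Markers of the sorted cells and of other cell types were read in the same way. Of 7 epithelial markers, BTWT was lower in 3 at the same unadjusted threshold, against 3.37% of all genes by 1 probe set each. These were Vil1 at -0.40 and Krt20 at -0.32, without overlap (3.14% of all genes), and Krt19 at -0.22. For Vil1, the nearest mice of the groups were at -0.005 in BTWT and 0.005 in BTΔMAFF. Krt8 at -0.16 and Krt18 at -0.10 had the same sign, and Epcam at 0.10 and Cdh1 at 0.11 had the other. For Epcam, 1 of its 2 probe sets had the sign given. The mean of the 7 ran from -0.11 to 0.017 over the BTWT mice and from 0.027 to 0.14 over the BTΔMAFF mice. Of 10 stromal markers, Pdgfrb was higher at 1.16, with this sign on 1 of its 2 probe sets, and 9 were neither. The list median was -0.175, with Col3a1 at -1.14 and Dcn at -1.03, each with this sign on 1 of its 2 probe sets. Col1a1 was at -0.77, with BTΔMAFF replicate 2 alone at 2.03, Vim at -0.62, and Col1a2 at -0.36. Lum, Pdgfra, Acta2, and Des lay on the other side, between 0.012 and 0.043. The list mean ran from -0.41 to 0.37 in BTWT and from -0.06 to 0.73 in BTΔMAFF. The 9 leukocyte, 8 endothelial, and 5 neuron and glia markers measured had 0 genes at the threshold, and list means between -0.06 and 0.11 in all mice. Single markers lay farther out, with Cd52 at 1.02 in BTΔMAFF replicate 1 and Pecam1 at 0.885 in BTΔMAFF replicate 3. Centred values cannot tell which of these markers were absent, and the part of cell composition in the values of the Notch and secretory genes was not tested.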

How the data were processed

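The authors deposited log2 values of 45101 probe sets on 8 arrays, 1 for each mouse, and the median of the 8 values was found to be 0 for every probe set (tolerance 1e-06). Affymetrix Expression Console, with no version, is named in the submitters' processing notes, and GeneSpring in the methods. How probes were summarized, corrected for background, and normalized is not given in the sources used here. Besides the number of arrays, the spread between mice and between arrays limits the precision.

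The 64 control probe sets were left out, and a linear model without covariates was fitted to the other 45037 (limma 3.58.1 under R 4.3.3, functions lmFit and eBayes), with Benjamini-Hochberg adjustment over them and a threshold of 0.05. This procedure was tested on simulated data. In the array annotation, 34945 probe sets have 1 gene, 932 several, and 9160 none, and 34741 of the first were matched to RefSeq (GRCm38.p6), with 0 symbols changed. Where a gene has several, the one that varied most stood for it (largest SD over 8 arrays, groups ignored). Correlations across mice were tested by exact permutation in Python 3.11.15.

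The genes and lists were chosen with earlier results of these data known. All 17 probe sets were named; from each list, genes at an unadjusted p under 0.05, up to 4, or else the one of smallest p; and the 5 genes most like Atoh1 and Hes1. Muc2, Spdef, Reg4, Spink4, Col3a1, Dcn, Col1a1, and Vim, and the genes most like Gfi1, were added after their values were seen. So were the Epcam difference, Cdh1, Krt8, Krt18, Col1a2, Lum, Pdgfra, Acta2, Des, Cd52, and Pecam1, and the other genes whose r with Gfi1 is given. List genes that were not matched to a probe set with 1 gene are not reported here.

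Alternatives were array weights, quantile normalization, subtraction of the median of each array, a robust prior, the methods' unpaired test with equal variance, an SD filter (in place of a filter on level), gene means over probe sets, a block for the replicate number, omission of each array in turn, and omission of both arrays that stood apart. The titles number the mice from 1 to 4 in each group. Deviations of same-numbered arrays from their group means had correlations of 0.392, -0.04, 0.033, and -0.27, so the numbers were not taken as pairs. That each array is a separate mouse follows from the study's description, and the p-values measure the spread between these mice. The RNA-Seq and 16S rRNA experiments were not analysed here.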

Additional observations from a re-analysis of the deposited data

Results flagged for a closer look

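Of 34 sets of 4 mice (17 probe sets in 2 groups), 2 held a mouse whose gap to the nearest other exceeded the 95% critical value of Dixon's test for that number of mice, and chance gives about 1 in 20. On Jag1 1421105_at, BTΔMAFF replicate 1 was at -0.63, with a gap of 0.862 of the range. On Hes1 1418102_at, BTWT replicate 2 was at -0.54, with a gap of 0.838 of the range. The latter is one of the arrays that stood apart on the first principal component.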

How the results depend on the processing

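Of 272 alternative values for the differences of the 17 probe sets, 228 kept their direction and side of the threshold and 42 changed sign. The other 2, with array weights, passed an unadjusted p of 0.05. None passed adjustment (smallest adjusted p 0.182), and 4 probe sets never changed sign. The causes were not tested.

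The count over all probe sets, 0 after adjustment and 2295 before, was 25 after adjustment with the SD filter, 510 with array weights, 2 without both arrays that stood apart, 1 with each array centred, and 0 to 6 when single arrays were left out (6 without BTΔMAFF replicate 4, 2 without BTWT replicate 2, 1 without BTWT replicate 3). By the methods' unpaired test it was 0 after adjustment and 1721 before, with 0 of the 17 probe sets either way. Before adjustment it was 11533 with array weights, 4745 without both arrays, and 1774 to 4497 without single arrays, the last without BTΔMAFF replicate 4. Array weights were 4.68 and 4.36 for BTWT replicate 3 and BTΔMAFF replicate 2 and at most 1.33 for the others. With them, 2 of the 17 probe sets passed an unadjusted p of 0.05, against 11533 of all 45037 probe sets. The 2 were Jag1 1421106_at at 0.42 (limma, adjusted p = 0.194) and Notch2 1451889_at at 0.048 (limma, adjusted p = 0.182). The groups did not overlap in 3 of 17 without both arrays (45.06% of all probe sets), and in 0 to 3 when single arrays were left out. The count was 3 without BTΔMAFF replicate 4 (42.92% of all probe sets) and 1 without BTWT replicate 1 (4.01% of all probe sets). The 3 were Jag1 1421105_at, Dll4 1421826_at, and Neurog3 1422312_a_at. The list genes at an unadjusted p under 0.05, 10 in the report, were 18 without both arrays and 7 to 16 without single arrays, 16 without BTΔMAFF replicate 4. In the settings with 18 and 16, the count over all probe sets also rose, from 2295 to 4745 and 4497.

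Differences changed sign as follows. With array weights, they were 0.148 for Gfi1, 0.0429 for Hes1, 0.0233 for Notch1 1418634_at, -0.147 for Jag1 1434070_at, 0.217 for Hes6 1436050_x_at, and -0.0125 for Atoh1. Without both arrays, they were 0.0841 for Gfi1, 0.102 for Hes1, 0.0303 for Notch1 1418634_at, and -0.402 for Jag1 1434070_at. With centring, they were -0.00633 and -0.0117 for Dll4, -0.00433 and -0.00586 for Neurog3, and -0.0066 and -0.000213 for Notch2. With quantile normalization, they were 0.0438 for Hes1, -0.00894 and -0.0189 for Dll4, -0.0064 and -0.00909 for Neurog3, and -0.0218 for Jag1 1434070_at. When single arrays were left out, they ran from -0.741 to 0.189 for Gfi1, -0.185 to 0.107 for Hes1, -0.369 to 0.0337 for Notch1 1418633_at, -0.194 to 0.106 for Notch1 1418634_at, -0.0118 to 0.0423 for Dll4 1421827_at, -0.28 to 0.43 for Notch2 1455556_at, -0.0493 to 0.319 for Atoh1, -0.401 to 0.463 for Jag1 1434070_at, and -0.407 to 0.059 for Hes6 1436050_x_at. The r of Atoh1 with Neurog3 was -0.315 with quantile normalization and -0.251 with centring, and that with Dll4 was 0.372 without both arrays and 0.082 with gene means. With quantile normalization, the r of Gfi1 with Reg4 and Spink4 was 0.892 and 0.872 (exact permutation test, adjusted p = 0.0289), and under the other alternatives its adjusted p was 0.125 to 0.216. Their rank correlation no longer passed adjustment without both arrays (adjusted p = 0.111 for both), nor that of Spink4 with centring (adjusted p = 0.0871).

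With the replicate number as a block, 0 of the 17 probe sets and 0 of all passed adjustment, 2748 passed an unadjusted p of 0.05 in place of 2295, and 13 list genes did in place of 10. The numbers were not found to pair the mice, as only replicate 1 correlated best with its own number.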
